A study of Mus musculus with 12 samples.

Results

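Osbpl3 and 9 relatives, Osbpl1a, Osbpl2, Osbpl5, Osbpl6, Osbpl7, Osbpl8, Osbpl9, Osbpl10 and Osbpl11, encode oxysterol-binding protein-related proteins (ORPs), and their RNA levels were read in mouse liver. The 10 genes were taken by name out of 51912 in the count table, because Osbpl3 had moved with both diet and genotype in these libraries and the others are its family. For that reason the diet and genotype values of Osbpl3 are given as a description with no test, and tests are given for its relatives and for the interaction. The 12 livers came from 4 groups of 3 animals, wild-type or Mlkl-/- mice on a normal chow diet (ND) or a high-fat diet (HFD) of 36% fat with 59% of energy from lipid. Mlkl encodes the executor of necroptosis, and Mlkl-/- marks mice with both copies disrupted; the labels do not describe the allele. The diets began at 8 to 9 weeks of age and ran for 16 to 25 weeks by the series text, and for 25 weeks by each sample's label. The labels and series text used here give no sex, littermate status or housing, and the livers are said to have been chosen by mean organ weight.

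ORPs share a lipid-binding domain that holds a sterol or phosphatidylserine and, in exchange, the signalling lipid phosphatidylinositol 4-phosphate (PI4P). Many of them bind both VAP proteins of the endoplasmic reticulum (ER) and a second membrane, and move lipids where the membranes touch. In liver such transfer is known for its part in cholesterol, phosphatidylserine and lipid droplet handling, and ORP3, the product of Osbpl3, binds VAPA and the small GTPase R-Ras and is known for its part in cell adhesion.

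Levels are in CPM, a gene's share of a library's 3' end reads, with library sizes scaled by TMM factors, and n is 3 libraries per group. Reads come from near a transcript's 3' end, so a count was not divided by length, and levels of different genes were set side by side on this scale. Library totals ran from 19435391 to 32120426 counts, and 8 of the 10 members passed the filter on low counts that left 18098 genes. Mlkl itself had 72 to 252 counts in the 6 wild-type libraries and 9 to 34 in the 6 libraries labelled Mlkl-/-, a log2 difference of -2.42 ± 0.26 (SE) averaged over diets (edgeR quasi-likelihood test, adjusted p = 0.00202). Whether the Mlkl-/- reads come from the altered part of the gene was not analysed here. Hepatocyte markers were present in all libraries at a summed 75752 to 135936 CPM. In 6 libraries (wild-type HFD replicates 2 and 3, all 3 Mlkl-/- HFD and Mlkl-/- ND replicate 1) the summed raw CPM of 8 loci (Mir6236, Lars2 and 6 predicted genes) was 3484 to 9239, against 378 to 656 in the other 6 libraries, so this level moved with diet.

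Osbpl3 lies on the minus strand of chromosome 6 at 50293330 to 50456201 (mm10, GENCODE M21), has 7 protein-coding transcripts with up to 22 exons, and overlaps no other annotated gene. Osbpl9, the member with the highest mean level over the 12 libraries (124 CPM), lies on the minus strand of chromosome 4 at 109061145 to 109202272, where it overlaps Nrd1 on the other strand. The start regions of both are shown because 1 gene changed level across groups and the other, within the same family, had the highest mean level. They were taken from RefSeq (GRCm38.p6), chr6:50456202-50456420 and chr4:109202273-109202522, minus strand, 5' to 3'. For Osbpl3 the last 31 bases before the RefSeq start were left out, since annotated transcripts already cover them. Capitals mark a GC box (GGGCGG) or a CCAAT box (CCAAT) on either strand.
Osbpl3: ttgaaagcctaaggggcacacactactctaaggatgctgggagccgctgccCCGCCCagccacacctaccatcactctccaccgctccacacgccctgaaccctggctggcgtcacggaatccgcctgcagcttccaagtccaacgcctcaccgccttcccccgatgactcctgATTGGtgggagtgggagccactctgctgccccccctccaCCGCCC
Osbpl9: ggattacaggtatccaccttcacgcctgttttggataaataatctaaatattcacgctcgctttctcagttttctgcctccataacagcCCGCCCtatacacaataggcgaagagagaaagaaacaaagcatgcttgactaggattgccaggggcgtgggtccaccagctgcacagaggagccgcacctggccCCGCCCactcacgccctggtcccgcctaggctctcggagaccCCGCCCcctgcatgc
In the 250 bases before its start, Osbpl3 had 3 GC boxes, at 199 to 194, 37 to 32 and 18 to 13 bases before the start (the last is not in the printed stretch), and 1 CCAAT box at 76 to 72. The printed Osbpl9 window had 3 GC boxes, at 161 to 156, 57 to 52 and 15 to 10, and no CCAAT box, while a second RefSeq start of Osbpl9, at chr4:109118037-109118286, had 0 GC boxes and 4 CCAAT boxes (69.6% GC). A GC box was found in 32.7% and a CCAAT box in 33.9% of 32841 start windows of the same length. The GC content was 62.8% for the Osbpl3 window and 56.0% for the printed Osbpl9 window, against a median of 52.4% over all windows. The Osbpl3 window held no AGGTCA, the core of a nuclear receptor site, nor this core repeated with a 1-base or 4-base spacer, no E-box (CACGTG), no TCACNCCAC, the sterol response element, and no TATAAA, which are in 14.0%, 0.0335%, 0.0152%, 6.02%, 1.05% and 12.4% of windows. These are letter matches in 1 window and say nothing of what binds there. A window was found for 8 of the 10 members, and none for Osbpl1a and Osbpl10.

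Osbpl3 was the member that varied most, from 1.78 to 58.5 CPM over the 12 libraries, a 32.9-fold range. In wild-type ND liver the 3 libraries held 5.43, 6.83 and 4.81 CPM, and in wild-type HFD liver they held 37.4, 58.5 and 36.4 CPM. In Mlkl-/- ND liver they held 3.68, 2.61 and 1.78 CPM, and in Mlkl-/- HFD liver 14.5, 19.4 and 14.9 CPM. All 6 HFD libraries were above all 6 ND libraries, and on each diet the 3 Mlkl-/- libraries were below the 3 wild-type libraries. The order of the group means was wild-type HFD (44.1 ± 12.5 CPM, SD), Mlkl-/- HFD (16.2 ± 2.74), wild-type ND (5.69 ± 1.03) and Mlkl-/- ND (2.69 ± 0.955), and no neighbours in this order overlapped. The counts behind these values were 45 to 147 reads per ND library and 303 to 1926 per HFD library, so the ND values are the less precise.

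**Figure D1:**
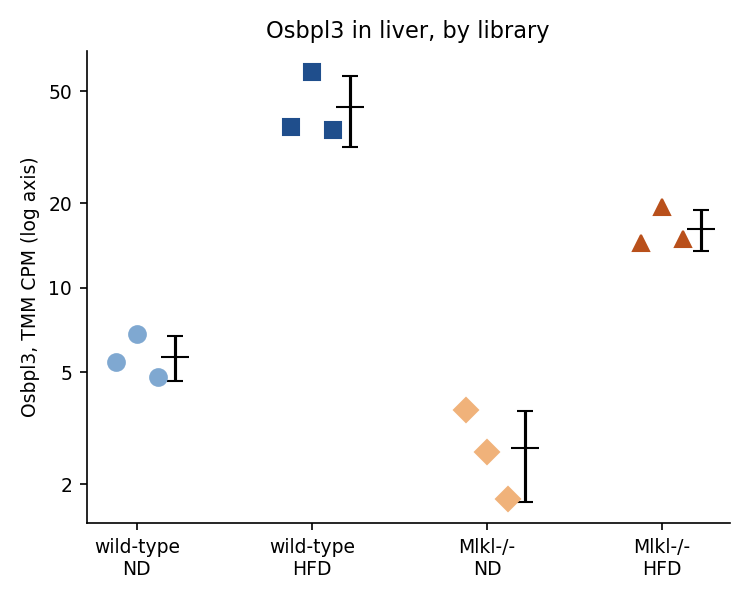
Osbpl3 in TMM CPM on a log axis for each of the 12 libraries (coloured points), with the mean and SD of 3 libraries per group in black. The 4 groups do not overlap, and wild-type HFD replicate 2, at 58.5 CPM, is the highest library.

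As a description, Osbpl3 was 7.78-fold higher on HFD than on ND in wild-type liver (log2 fold change 2.96 ± 0.26, SE) and 6.08-fold higher in Mlkl-/- liver (2.60 ± 0.27). The average over genotypes was a log2 fold change of 2.78 ± 0.18, the 59th largest in size among 18098 genes. Mlkl-/- liver held 0.471 times the wild-type level on ND (log2 -1.08 ± 0.27) and 0.368 times on HFD (-1.44 ± 0.24), which averaged to -1.26 ± 0.18. HFD libraries lay above ND libraries within both genotypes for 2.69% of all genes, and Mlkl-/- libraries lay below wild-type libraries on both diets for 0.718%. Nothing is read from these shares, since Osbpl3 was chosen on both contrasts.

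The difference between the diet effects of the genotypes was not used to choose Osbpl3 and was tested. The diet effect in Mlkl-/- liver was 0.36 log2 units below that in wild-type liver (interaction -0.36 ± 0.36, 95% interval -1.12 to 0.40, edgeR adjusted p = 0.747, with 0.645 to 0.967 over the alternatives), which is within its error. At 3 animals a group the interval holds both an equal diet response and a response about a log2 unit smaller in Mlkl-/- liver. No gene passed this interaction test by edgeR (0% of 18098) or limma-voom, while DESeq2 called 48 genes (0.258%), and Osbpl3 was not among them.

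The sample titles hold a code whose meaning is not given, 23 or 27 in ND and 25 or 29 in HFD libraries. No code occurs on both diets, so a diet difference cannot be told apart from one between codes. The libraries were split into the lower code of each diet (23 and 25) and the higher (27 and 29). In the lower part Osbpl3's HFD minus ND averaged 2.38 and Mlkl-/- minus wild-type -0.93 on the log2 CPM scale, and in the higher part they averaged 2.99 and -1.38. Each part has 1 or 2 libraries per group, so these are values with no error. With the level of the 8 loci as a term in the model, the diet value of Osbpl3 was 2.53 and the genotype value -1.42.

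The other branch of the same subfamily, Osbpl6 and Osbpl7, stayed near the limit of detection. Osbpl7 had 0.43 to 2.40 CPM, with 0.98 to 1.88 in wild-type ND, 1.06 to 2.40 in wild-type HFD, 0.49 to 1.28 in Mlkl-/- ND and 0.43 to 1.85 in Mlkl-/- HFD, and all groups overlapped. Its HFD effect was 0.33 ± 0.35 (adjusted p = 0.636) and its Mlkl-/- effect -0.47 ± 0.35 (adjusted p = 0.658), with an interval of -0.42 to 1.09 for diet. Osbpl6 had 1 to 7 reads per library and did not pass the filter. Osbpl7 shares its locus with Gm11574 on the opposite strand, and since no source used here states a strand setting for the counting, reads of the pair may not be told apart.

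Osbpl1a and Osbpl2 encode the ORP1 and ORP2 proteins, of which the long form of ORP1 is known for its sterol sensing on late endosomes and ORP2 for sterol delivery to the plasma membrane. Osbpl1a, with the second highest level of the family, had 103, 101 and 105 CPM in wild-type ND and 126, 113 and 131 CPM in wild-type HFD. In Mlkl-/- liver it had 117, 103 and 103 CPM on ND and 133, 139 and 115 CPM on HFD. The wild-type diet groups did not overlap, and in Mlkl-/- liver the lowest HFD library was below the highest ND library. Its log2 diet effect averaged 0.26 ± 0.09 (95% interval 0.07 to 0.45, edgeR adjusted p = 0.0901), a 1.20-fold difference that missed the threshold of 0.05. Over the alternatives its adjusted p ran from 0.00856 (edgeR, library size only) to 0.375 (edgeR, with the level of the 8 loci as a term). In the latter fit the effect was 0.22, and the level of the 8 loci itself moved with diet. Osbpl2 had 24.7 to 31.1 CPM over all libraries, with a diet effect of 0.00 ± 0.09 and an interval of -0.20 to 0.20.

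Osbpl5 and Osbpl8 encode ORPs that are anchored in the ER and trade phosphatidylserine for PI4P at the plasma membrane. Osbpl8, much the more abundant of the pair in liver, had 34.0 to 54.1 CPM in wild-type ND, 34.9 to 43.1 in wild-type HFD, 41.3 to 54.8 in Mlkl-/- ND and 29.5 to 44.0 in Mlkl-/- HFD. Its diet effect was -0.21 ± 0.14 (adjusted p = 0.404) and the groups overlapped. Osbpl5 had 1.38 to 4.16 CPM, with a diet effect of 0.49 ± 0.29 (adjusted p = 0.345), whose interval of -0.12 to 1.10 leaves room for a doubling.

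Osbpl9, whose product is known at the Golgi and at late endosomes, had 122, 115 and 147 CPM in wild-type ND and 110, 99.3 and 113 CPM in wild-type HFD. In Mlkl-/- liver it had 114, 137 and 140 CPM on ND and 134, 126 and 134 CPM on HFD. On HFD all 3 Mlkl-/- libraries were above all 3 wild-type libraries, the opposite of Osbpl3, while on ND the genotypes overlapped. The HFD genotype difference was 0.29 ± 0.13 (unadjusted p = 0.0447 and adjusted p = 0.310, edgeR fit across all genes), and the wild-type diet difference was -0.25 ± 0.13 (adjusted p = 0.301), so neither passed. Nrd1, on the other strand, had 1118 to 2314 reads per library, and Osbpl9 shares 31 sequences of 30 bases with Osbpl8 in the annotated transcripts. These sequences were taken from every base, so they can overlap and need not be separate stretches. For both reasons part of the reads of Osbpl9 could be assigned elsewhere.

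Osbpl11, which with Osbpl10 forms a further subfamily and whose product is known at the Golgi and late endosomes, had 15.2 to 21.8 CPM. Its groups overlapped in each contrast, with a diet effect of 0.12 ± 0.11 (adjusted p = 0.583) and a genotype effect of -0.14 ± 0.11 (adjusted p = 0.682). Osbpl10 had 1 to 11 reads per library and was not tested. Rps27rt, on the opposite strand within the Osbpl10 locus, had 97 to 374 reads.

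**Figure D2:**
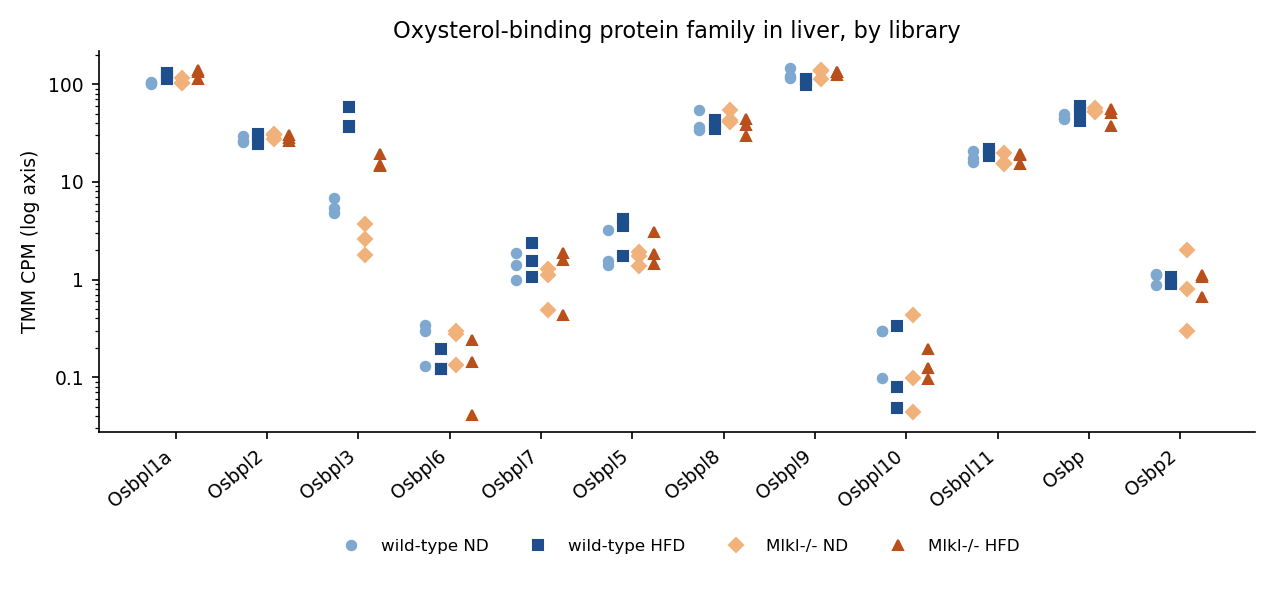
TMM CPM on a log axis for the 10 members and the founding family genes Osbp and Osbp2, with 1 point per library and the groups side by side. Osbpl3 spreads from 1.78 to 58.5 CPM, while Osbpl9 and Osbpl1a stay near 100 CPM or above, and Osbpl6 and Osbpl10 stay below 1 CPM.

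Counted over the 7 relatives of Osbpl3 that were tested, none passed an adjusted p under 0.05 in any of the 7 contrasts (edgeR). For diet averaged over genotypes this is 0 of 7 against 7.19% of all genes, for diet in wild-type 0 against 4.23% and for diet in Mlkl-/- 0 against 0.359%. For genotype the shares of all genes were 0.0166% averaged, 0.00553% on ND and 0.0276% on HFD, and 0 of 7 is near each of these backgrounds. At an unadjusted p under 0.05 there was 1 of 7 for averaged diet (Osbpl1a) against 22% of all genes, 1 for genotype on HFD (Osbpl9) against 15.5%, and 0 for the other contrasts, where all genes gave 5.51% to 20.5%, so these counts are not above the background. DESeq2 called 1 relative for averaged diet, Osbpl1a at an adjusted p of 0.0293, against 9.91% of all genes, and limma-voom called 0 against 6.95%. Groups did not overlap for 2 of 7 in the wild-type diet contrast (Osbpl1a higher, Osbpl9 lower) against 29.1% of all genes, and for 1 of 7 in the HFD genotype contrast (Osbpl9) against 21.4%, both close to the background.

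The median log2 diet effect of the 7 relatives was 0.12, with a range of -0.21 to 0.49, where the median of all genes was -0.01. Their median genotype effect was 0.05, with a range of -0.47 to 0.16, where the median of all genes was 0.01. The diet effect of Osbpl3, 2.78, lay far outside the range of its relatives, but Osbpl3 was chosen on this value, so nothing is read from the gap. Osbp, the founding gene of the family, at a mean of 50.2 CPM, had a diet effect of 0.00 ± 0.11 (interval -0.24 to 0.24) and a genotype effect of 0.05 ± 0.11 (adjusted p = 1.00 and 0.904). Osbp2, at 0.999 CPM, had a diet effect of -0.14 ± 0.36.

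**Figure D3:**
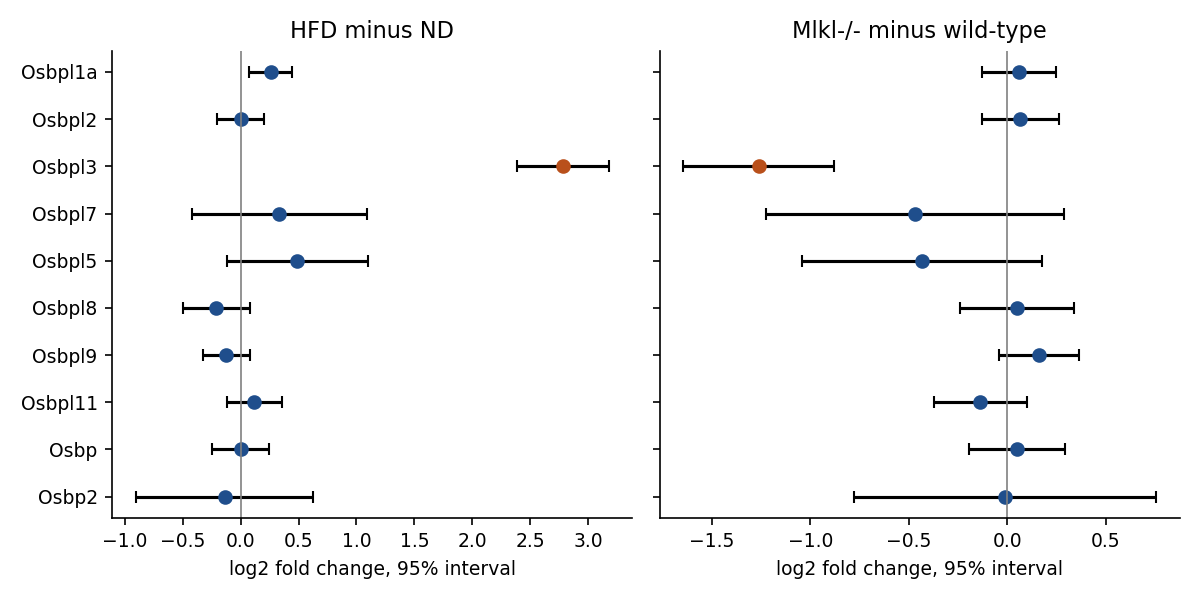
Log2 fold changes with 95% intervals for HFD minus ND averaged over genotypes (left) and Mlkl-/- minus wild-type averaged over diets (right), for the 8 members tested, Osbp and Osbp2. Osbpl3 (orange) sits at 2.78 and -1.26, and the other members lie between -0.21 and 0.49 for diet and between -0.47 and 0.16 for genotype. Osbpl3 was chosen on both of these values, so its intervals are a description and not a test.

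With Osbpl3 higher on HFD, the makeup of the family's reads differed between diets while the sum of the other members overlapped. Osbpl3 made up 1.76% ± 0.43 (SD) of the reads of the 10 members in wild-type ND and 12.0% ± 3.44 in wild-type HFD, and 0.806% ± 0.315 and 4.46% ± 0.665 in Mlkl-/- liver. The 9 other members summed to 304 to 356 CPM in wild-type ND and 307 to 335 in wild-type HFD, and to 318 to 345 and 342 to 352 CPM in Mlkl-/- ND and HFD. Osbpl9's share was 38.9% in wild-type ND and 29.2% in wild-type HFD, and 38.7% and 36.1% in Mlkl-/- ND and HFD.

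**Figure D4:**
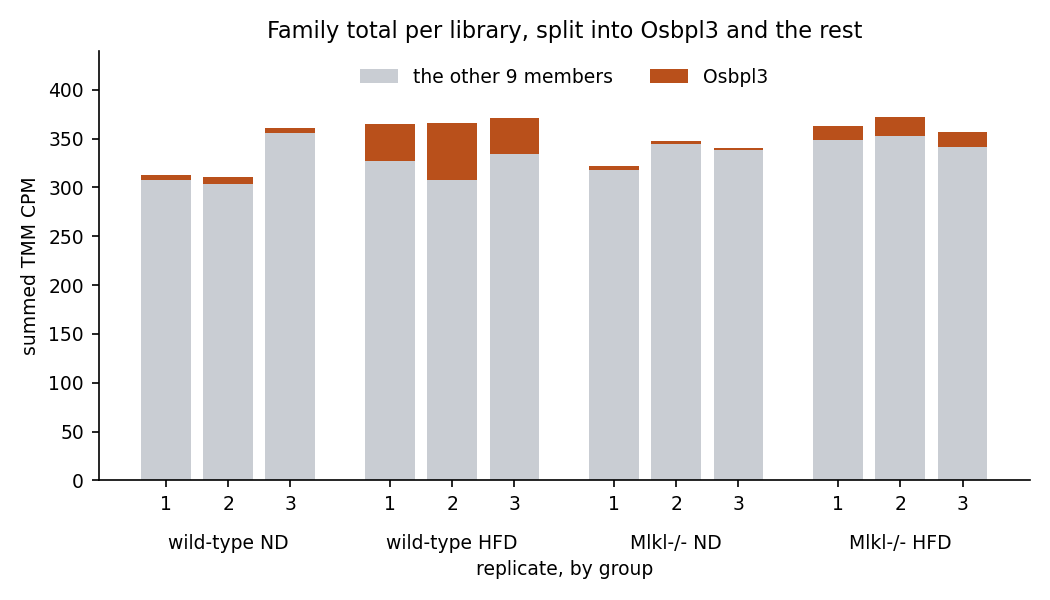
Summed TMM CPM of the 10 members in each library, split into Osbpl3 (orange) and the other 9 members (grey). The grey part runs from 304 to 356 CPM over the 12 libraries, and the orange part reaches 58.5 CPM in wild-type HFD replicate 2.

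The genes around Osbpl3 on chromosome 6 gave no comparable difference. Within 500 kb, Mpp6 had a diet effect of 0.24 ± 0.11 (edgeR adjusted p = 0.200), Gsdme 0.44 ± 0.22 (0.268) and Cycs, the gene for cytochrome c, -0.01 ± 0.11 (0.986). Their genotype effects were -0.04, 0.10 and 0.23, with adjusted p from 0.481 to 0.922. Npy and Npvf had at most 1 read in a library.

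Among 10889 genes with a mean of at least 5 CPM, the pattern most like that of Osbpl3 across the 12 libraries, by Pearson's r of log2 CPM, was that of Wipf3 (r = 0.980), a gene of actin regulation. Next came Dhrs7b (0.968), an enzyme of ether lipid synthesis, Fam102a (0.959), Gbe1 (0.959), the glycogen branching enzyme, Pcyox1 (0.954), Fads1 (0.953), a fatty acid desaturase, Unc5b (0.949), a netrin receptor, and Pltp (0.947), the phospholipid transfer protein of plasma. Wipf3 had 6.59 ± 0.56 CPM in wild-type ND, 16.7 ± 1.65 in wild-type HFD, 4.81 ± 0.857 in Mlkl-/- ND and 9.74 ± 0.661 in Mlkl-/- HFD, the same order of groups as Osbpl3 with smaller steps. With predicted genes that have no name passed over, the most opposite patterns were those of Psmd6 (r = -0.968), a proteasome subunit, Zfp207 (-0.959), Cfb (-0.958), complement factor B, and Cpb2 (-0.951). Cpb2 had 291 ± 22.3 CPM in wild-type ND, 175 ± 28.1 in wild-type HFD, 388 ± 25.7 in Mlkl-/- ND and 232 ± 31.9 in Mlkl-/- HFD. These r values describe 12 points that share groups, libraries and scaling, and each r includes the differences between groups.

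**Figure D5:**
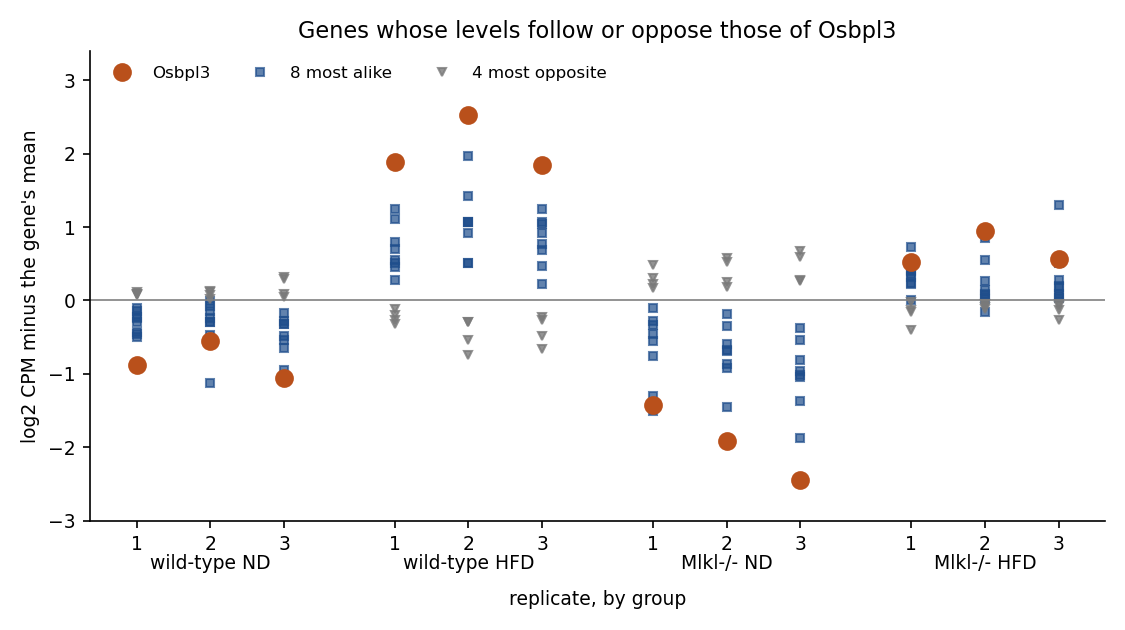
Log2 CPM minus the gene's mean over 12 libraries, for Osbpl3 (orange), the 8 named genes with the most similar pattern (blue squares) and the 4 with the most opposite (grey triangles). Osbpl3 is the highest of the genes drawn in all 3 wild-type HFD libraries, and its own lowest values are in Mlkl-/- ND.

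With each group's mean removed, the most similar named genes were others, led by Trip6 (r = 0.947 over 12 deviations), Rgl2 (0.942) and Faah (0.937, rank 5 with unnamed genes counted). The most opposite was Bach2 (-0.957). None of the genes named for the first measure was named for the second. Within the family, r with Osbpl3 over the 12 libraries was 0.665 for Osbpl1a, 0.379 for Osbpl11, -0.096 for Osbp, -0.180 for Osbpl2, -0.388 for Osbpl8 and -0.652 for Osbpl9. With group means removed it was 0.114 for Osbpl1a, -0.012 for Osbpl8, -0.181 for Osbp, -0.333 for Osbpl2, -0.717 for Osbpl11 and -0.840 for Osbpl9, so the sign for Osbpl11 depended on whether the groups were included. CPM values of a library share 1 total.

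None of the partners that ORPs bind passed for diet by edgeR. Of 12 VAP anchors and ORP partners, 0 passed for averaged diet by edgeR against 7.19% of all genes, and 3 had an unadjusted p under 0.05, against 22% of all genes. DESeq2 called 2, Vapb and Mospd2, both ER anchors, against 9.91% of all genes, and limma-voom 0. Their median diet effect was 0.17, and the most abundant, Cideb and Rab7, had 0.16 ± 0.11 and 0.05 ± 0.08. Of 12 genes of ER-plasma membrane contacts and of the cell adhesion in which ORP3 is placed, 0 passed by edgeR, DESeq2 or limma-voom and 3 had an unadjusted p under 0.05, counts near the same shares of all genes, with Itgb1, an integrin, at -0.09 ± 0.10 and Fermt2, an integrin activator, at -0.27 ± 0.11. For genotype averaged over diets 0 of either list passed, with 0 at an unadjusted p under 0.05, and on HFD 0 passed and 1 of each list had an unadjusted p under 0.05, beside 15.5% of all genes.

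Of 16 genes that supply or remove PI4P and phosphatidylserine, 2 rose with diet by edgeR, beside 3.57% of all genes, and 0 fell, and DESeq2 and limma-voom called the same 2, Fam126a and Ttc7. Both encode parts of the complex that recruits a PI4P-making kinase to the plasma membrane, and its other listed genes, Pi4ka, Efr3a, Fam126b and Ttc7b, did not pass. Fam126a had 6.40 ± 0.856 and 18.05 ± 5.25 CPM in wild-type ND and HFD and 5.10 ± 0.876 and 8.14 ± 5.30 in Mlkl-/- ND and HFD, an averaged log2 effect of 1.09 ± 0.26 (edgeR adjusted p = 0.0250). Ttc7 had 49.4 ± 6.04 and 68.7 ± 12.9 CPM in wild-type and 42.8 ± 3.14 and 60.7 ± 10.7 in Mlkl-/- liver (0.49 ± 0.12, adjusted p = 0.0219). Neither call held once the level of the 8 loci was in the model, and that of Fam126a also ended with no filter on low counts (highest adjusted p over the alternatives that kept all libraries 0.238 and 0.361). The level of the 8 loci moved with diet, so a call lost in that fit cannot be told apart from this overlap. Each ended in 5 of the 12 fits that left out a library. For Fam126a the library left out was any of the 3 of wild-type ND, replicate 2 of wild-type HFD or replicate 2 of Mlkl-/- ND, and the highest adjusted p was 0.0695. For Ttc7 it was replicate 3 of wild-type ND, replicate 2 or 3 of wild-type HFD, replicate 2 of Mlkl-/- ND or replicate 3 of Mlkl-/- HFD, with 0.0612 as the highest.

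Among 36 other lipid transfer proteins tested, 3 rose with diet by edgeR and 0 fell, beside 3.57% of all genes that rose. Pltp went from 32.5 ± 9.78 to 140 ± 49.5 CPM in wild-type liver and from 16.5 ± 2.46 to 93.2 ± 26.4 in Mlkl-/- liver (2.30 ± 0.20, edgeR adjusted p = 0.000133). Pctp, which carries phosphatidylcholine, went from 79.7 ± 14.9 to 123 ± 9.59 CPM and from 49.6 ± 9.47 to 88.6 ± 12.1 CPM (0.73 ± 0.12, adjusted p = 0.00337). Stard4, a soluble sterol carrier, had a smaller effect (0.50 ± 0.14, adjusted p = 0.0477) whose call held in only 4 of 12 fits that left out a library. The median of the 36 was 0.05, 22 of them were above 0, and 11 had an unadjusted p under 0.05, beside 22% of all genes. For genotype averaged over diets 0 of 36 passed by edgeR, beside 0.0166% of all genes, and 7 had an unadjusted p under 0.05, beside 10.6%. DESeq2 called Pctp and Pltp, beside 1.15% of all genes, and limma-voom 0, beside 0.0111%. By edgeR Pctp was at -0.58 ± 0.12 (adjusted p = 0.0954) and Pltp at -0.78 ± 0.20 (0.194).

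Of 14 genes of the oxysterol receptor LXR and its targets, 4 rose with diet by edgeR, Pltp, Scd1, Lpcat3 and Smpdl3a, beside 3.57% of all genes, and 0 fell, beside 3.62%. The rest of the list, among them Abca1, Abcg1, Abcg5, Abcg8, Mylip and Srebf1, did not pass. Pltp is the same gene as in the list of lipid transfer proteins. DESeq2 called the same genes, beside 9.91% of all genes, and limma-voom called Pltp, Scd1 and Smpdl3a, beside 6.95%. Scd1, the stearoyl-CoA desaturase, had 8814 ± 1691 CPM in wild-type ND and 17257 ± 5754 in wild-type HFD, and 4054 ± 947 and 8945 ± 2840 in Mlkl-/- liver (1.06 ± 0.20, edgeR adjusted p = 0.00684). Lpcat3, which remodels phospholipids, and Smpdl3a, a phosphodiesterase, each rose by 0.39 (adjusted p = 0.0473 and 0.0389), calls that held in 2 and 4 of 12 fits without 1 library. With the level of the 8 loci, which moved with diet, in the model, Scd1, Pctp, Lpcat3, Smpdl3a and Stard4 no longer passed, while Pltp and Cyp3a11 did. For genotype the median of the list was -0.27 with 2 of 14 above 0, and 0 passed by edgeR (5 at an unadjusted p under 0.05, beside 10.6% of all genes) or limma-voom, while DESeq2 called Pltp and Scd1, beside 1.15% of all genes.

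Of 7 tested genes that make or remove oxysterols, 1 fell with diet by edgeR, beside 3.62% of all genes that fell, and 0 rose. Cyp3a11, which hydroxylates sterols and drugs, fell from 3383 ± 918 to 523 ± 299 CPM in wild-type and from 2924 ± 1036 to 331 ± 127 CPM in Mlkl-/- liver (-2.92 ± 0.35, edgeR adjusted p = 0.00192). It has close paralogs among the Cyp3a genes, whose reads may be shared with it. Hsd3b7, of bile acid synthesis, had 0.09 ± 0.10. DESeq2 called the same gene, and limma-voom also called Cyp7b1, the oxysterol hydroxylase, at -1.44 (adjusted p = 0.0203), where edgeR gave -1.22 ± 0.40 (adjusted p = 0.101); it is named after its values were seen. For genotype averaged over diets 0 of 7 passed by edgeR, beside 0.0166% of all genes, and 2 had an unadjusted p under 0.05, beside 10.6%. DESeq2 and limma-voom also called 0, beside 1.15% and 0.0111% of all genes.

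In whole liver, a change in the cells present and a change in RNA per cell cannot be told apart, and several marker sums differed between groups. By group medians, of the sums given here only that of the adipocyte markers had the order of groups seen for Osbpl3. The 6 adipocyte markers summed to 23.1 to 35.7 CPM in wild-type ND, 114 to 163 in wild-type HFD, 12.3 to 22.4 in Mlkl-/- ND and 29.8 to 84.8 in Mlkl-/- HFD. For averaged diet 3 of 6 passed by edgeR (Adipoq, Cidec and Lipe), beside 7.19% of all genes. For genotype 0 passed by edgeR or DESeq2, with 4 at an unadjusted p under 0.05, beside 10.6% of all genes. By gene, over the 12 libraries, Cidec was at 5.09 to 134 CPM and Lipe at 6.91 to 30.2 CPM. The sum and its order of groups therefore mostly follow Cidec and Lipe, and say little of the other markers on the list. Adipoq was at 0.0443 to 3.33 CPM, Plin1 at 0.0491 to 3.47, Lep at 0 to 1.88 and Retn at 0 to 0.964. In wild-type liver Cidec (13.6 to 24.5 on ND, 78.7 to 134 on HFD) and Lipe did not overlap between diets. Adipoq (0.171 to 0.540 and 0.0801 to 3.33), Plin1 (0.196 to 0.982 and 0.0801 to 3.47), Lep and Retn did. In Mlkl-/- liver Adipoq, Plin1 and Lipe did not overlap between diets, and Cidec, Lep and Retn did. Macrophage markers summed to 308 to 450 CPM in wild-type HFD and 150 to 287 in Mlkl-/- HFD, against 214 to 282 and 193 to 355 on ND. Endothelial markers summed to 208 to 319 CPM in wild-type HFD and 107 to 140 in Mlkl-/- HFD, against 151 to 230 and 134 to 213 on ND. Neither the macrophage nor the endothelial sum overlapped between the genotypes on HFD, and nor did 21.4% of single genes. For genotype averaged over diets, DESeq2 called 5 of the 8 endothelial markers (Cdh5, Clec4g, Dnase1l3, Kdr and Stab2), beside 1.15% of all genes. In the same contrast edgeR called 0, with 7 at an unadjusted p under 0.05, beside 10.6% of all genes. On HFD edgeR called Dnase1l3, beside 0.0276% of all genes. Stellate cell markers summed to 198 to 415 CPM in wild-type HFD and 161 to 198 in Mlkl-/- HFD, ranges that meet. In Mlkl-/- liver, where Osbpl3 was higher on HFD, few of these markers had a diet effect above 0. They were 1 of 13 macrophage, 0 of 8 endothelial and 3 of 9 stellate cell markers, against 12, 8 and 8 in wild-type liver. The median diet effect of all genes was -0.02 in Mlkl-/- and -0.01 in wild-type liver. By edgeR 0 of these markers passed for diet in Mlkl-/- liver, beside 0.359% of all genes. In wild-type liver 2 macrophage, 1 endothelial and 1 stellate cell marker passed, beside 4.23%. Hepatocyte markers summed to 125879 to 131145 CPM in wild-type ND and 75752 to 102511 in wild-type HFD, which did not overlap, and nor did 29.1% of single genes. In Mlkl-/- ND and HFD they summed to 100571 to 135936 and 97841 to 128992 CPM. For averaged diet by edgeR 3 of the 10 hepatocyte markers fell (Fgb, Serpina1c and Cps1), beside 3.62% of all genes, and 1 rose (Cyp2e1), beside 3.57%. Their part in the values of Osbpl3 was not tested.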

How the data were processed

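RNA from 12 mouse livers was made into QuantSeq 3' libraries and sequenced on a NextSeq 500, per the labels' protocols. The authors deposited raw counts per gene, whole numbers with no normalization, and per the submitters' processing notes the tools were cutadapt 1.9, HISAT2, featureCounts and limma with mm10. No source used here states the other versions, the annotation or the strand setting. Gene symbols and positions came from GENCODE M21, start regions from RefSeq.

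Tests used edgeR 4.0.16 in R 4.3.3: filterByExpr (minimum 10 counts, 15 in total, 18098 genes kept), TMM (factors 0.922 to 1.16), 1 mean per group over all 12 libraries, 8 residual degrees of freedom, robust glmQLFit and glmQLFTest, 7 contrasts, and Benjamini-Hochberg adjustment over 18098 genes. "Averaged" contrasts weight both levels of the other factor equally. SE is that of the log2 fold change, intervals are 95%, and log2 CPM has a prior count of 2. The script was tested on simulated data. DESeq2 1.42.0, limma-voom (limma 3.58.1), other scalings, filters and left-out libraries were alternatives. Library pairs within a group differed beyond sampling noise (chi-square per degree of freedom 17.9 to 125). That the libraries are separate animals is read from their animal numbers.

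The members and the gene lists (185 symbols, all matched) were chosen with earlier results of these data known. Osbpl3's diet and genotype effects were used to choose it and carry no p. By rule, the text names all members, per list the called genes or else the most abundant, and the 8 genes most similar and 4 most opposite to Osbpl3.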

Additional observations from a re-analysis of the deposited data

How the results depend on the processing

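Osbpl3 kept its direction in both contrasts under all 21 alternatives tried, with a diet log2 fold change of 2.53 to 2.95 and a genotype value of -1.42 to -1.13. Leaving out 1 library at a time gave 2.65 to 2.95 and -1.42 to -1.13. The lower title code alone gave a diet value of 2.38, farther from 2.78 than the pooled SD within groups of 0.36. Its interaction ran from -0.60 to -0.07 and never passed.

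The count of relatives passing for averaged diet went from 0 to 1, each time Osbpl1a, with library size only (adjusted p = 0.00856), a filter of at least 5 CPM in 3 libraries (0.0473), DESeq2 (0.0293) and without Mlkl-/- ND replicate 1 (0.0329); over the fits without 1 library it ran from 0 to 1. For diet in wild-type it went to 1 with library size only (0.0360), a scaling that moves the median of all genes by 0.14 for averaged diet and 0.20 in wild-type liver. Over 49 results of the relatives and 1043 refits, 1038 stayed on their side of the threshold, and 78 that were not called changed sign. Over 112 results of named list genes and 2409 refits, 79 lost a call, 43 gained one and none of the called values changed direction. Of the 8 genes most similar to Osbpl3, library size only kept 5 and leaving out 1 library kept at least 4, alternatives chosen after seeing the data. The labels give no replicate numbers shared between groups. The titles hold codes that recur in both genotypes of a diet, and with the lower or higher code as a term Osbpl3 was at 2.80 for diet and -1.27 for genotype, and none of its relatives passed. The fit on the compared groups only was run for the effects within 1 genotype or diet. Osbpl6 and Osbpl10 are limited by depth, with 1 to 11 reads per library.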
